A study of Homo sapiens with 10 samples.

Results

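The transforming growth factor beta (TGF-beta) and bone morphogenetic protein (BMP) pathway genes were a list of 46 genes chosen by symbol, covering ligands, extracellular regulators, receptors, SMAD proteins, intracellular inhibitors and targets. Of the 46, 45 had a transcript cluster on the array that carries their symbol alone, among 20961 clusters with a gene symbol, and BMPR1A was not analysed here. A transcript cluster is the set of probes that reads 1 gene on the Affymetrix Human Gene 1.0 ST array, and a gene with several clusters was represented by the brightest one, which applied to SMAD2 alone. Expression was measured in Panc1 cells, an established epithelial line from a human pancreatic carcinoma, 48 h after transduction with adenovirus at a multiplicity of infection (infectious particles added per cell) of 150. The question of the study was how KLF11, a zinc finger transcription factor of the Krüppel-like family that binds GC-rich DNA, depends on its chromatin partners to change gene expression.

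All 5 conditions received the same virus, which carried no insert in the empty vector control (EV), wild type KLF11 (WT), or 1 of 3 mutants of KLF11. The A347S mutant is described by the study as uncoupled from WD40-domain proteins, Δ486 as uncoupled from HP1 and its histone methyltransferases, and EAPP as uncoupled from the Sin3 and histone deacetylase complex. The proteins were overexpressed in cells that keep their own KLF11, so each condition is a gain of protein over the endogenous gene and not a replacement of it. There were 10 arrays, 2 per condition. The titles call them biological replicates, whereas the protocol describes technical duplicates of RNA pooled from 3 cultures, so the spread between arrays, and every p-value below, may cover technical error only.

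TGF-beta ligands are secreted in a latent form, held in the matrix by latent TGF-beta binding proteins, and once released they bind a pair of type II and type I receptor kinases. The type I receptor phosphorylates SMAD2 and SMAD3 for TGF-beta and activin, or SMAD1, SMAD5 and SMAD9 for BMPs, and these join SMAD4 and enter the nucleus. The inhibitory SMAD6 and SMAD7, the SMURF ubiquitin ligases and the SKI family limit the response. In pancreatic epithelium TGF-beta restrains growth, and carcinomas of the pancreas often lose this restraint. KLF11 is itself a TGF-beta-induced gene, also named TIEG2, and represses SMAD7 in epithelial cells according to earlier work on the pathway.

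The arrays were alike, with medians between 6.81 and 6.87 on the log2 scale and a correlation of 0.996 to 0.997 between the arrays of a condition. Of the keratins of pancreatic epithelium, KRT8 and KRT18 were bright, at a mean of 12.5 and 13.0, and KRT7 was at 6.42. The leukocyte marker PTPRC was at 3.59, the fibroblast marker LUM at 3.49 and the islet hormone GCG at 3.86. These were the lowest of the markers of their cell types, near the low end of a scale that ran from 1.85 to 14.6. Other markers of these cell types were higher, with the immune markers CD68 and CD14 at 9.64 and 6.14. The fibroblast marker COL1A1 was at 8.13 and the islet hormone SST at 5.77, so markers of other cell types were not uniformly low. The cluster of KLF11 read 8.37 and 7.75 in EV, 8.82 and 8.85 with WT, 8.85 and 8.88 with A347S, 8.72 and 8.83 with Δ486, and with EAPP 8.78 and 8.68. All 8 construct arrays lay above both EV arrays, by 0.77, 0.81, 0.71 and 0.67 on the log2 scale for WT, A347S, Δ486 and EAPP (SE 0.16), and the EV arrays lay 0.62 apart. Without the second EV array these differences were 0.46, 0.50, 0.40 and 0.36, and KLF11 no longer reached 1.5-fold with any construct. In what follows a gene is said to have risen or fallen where the fold change against EV was at least 1.5 (0.58 on the log2 scale) and the limma p-value, adjusted over all 20961 clusters, was under 0.05.

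With WT KLF11, 5 of the 45 pathway genes passed this test, which is 11.1% where 3.99% of all clusters passed. They were 2 that rose, beside 2.21% of all clusters, and 3 that fell, beside 1.78%. With A347S 11 passed (24.4% beside 8.98% of all clusters), of which 2 rose (3.63% of all clusters) and 9 fell (5.35%). With Δ486 9 passed (20% beside 5.61%), of which 3 rose (2.38% of all clusters) and 6 fell (3.23%). With EAPP 0 of 45 passed, where 0.00477% of all clusters did. For EAPP an unadjusted limma p under 0.05 was reached by 15 of the 45 genes beside 8.73% of all clusters, and 0 of these also reached 1.5-fold, where 0.181% of all clusters did both. The adjusted p alone was under 0.05 for 15, 26 and 18 of the 45 with WT, A347S and Δ486 and for 0 with EAPP, beside 17.3%, 28.4%, 22.4% and 0.00477% of all clusters. Signal level moved with the shares of all clusters, since brighter clusters passed more often, and 5 of the 45 had a mean below 6 on the log2 scale. Among the 40 brighter genes the shares were 12.5%, 27.5% and 20% for WT, A347S and Δ486, and among the 13768 brighter clusters they were 5.58%, 12.7% and 7.88% (with EAPP 0% and 0.0218%).

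The pathway genes were more often lower than higher with each construct. Of the 45, 30 had a lower mean than EV with WT, 32 with A347S, 32 with Δ486 and 35 with EAPP, and from 29 to 36 with any construct under another scaling or without any 1 array. Of all clusters, 54.5%, 48.5%, 45.5% and 49.6% were lower with WT, A347S, Δ486 and EAPP. The median change of the 45 genes was -0.14, -0.28, -0.21 and -0.10 on the log2 scale in that order, where the median of all clusters was -0.02, 0.01, 0.02 and 0.00. Their median absolute change was 0.19, 0.30, 0.28 and 0.16, beside 0.13, 0.16, 0.16 and 0.08 over all clusters. The arrays of a construct lay wholly above or below those of EV for 32, 37, 39 and 25 of the 45 genes, beside 57.6%, 63.6%, 61.7% and 39.3% of all clusters. All 4 comparisons use the same EV arrays, so an error in those arrays enters each of them.

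**Figure D1:**
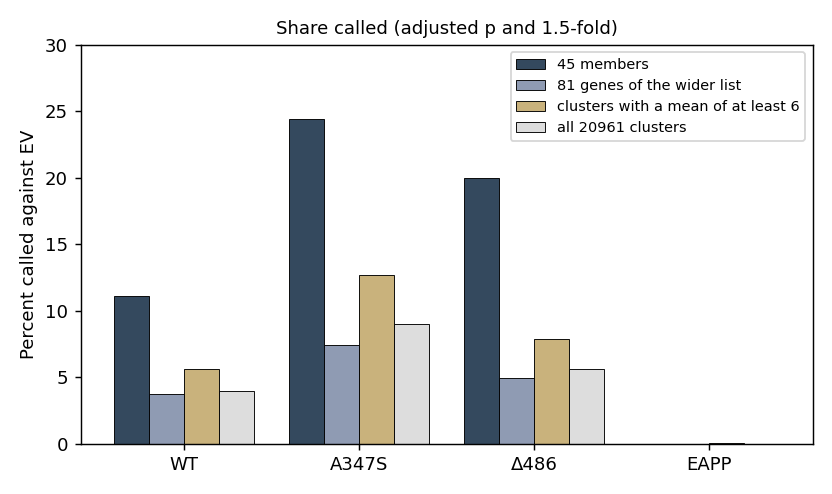
Percent of genes that passed the test (vertical axis) against EV for each construct (horizontal axis), with bars for the 45 pathway genes, the 81 genes of a wider pathway list, the clusters with a mean of at least 6 and all 20961 clusters. The pathway genes reach 11.1%, 24.4% and 20% with WT, A347S and Δ486 and 0% with EAPP.

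In all, 12 genes of the list passed with at least 1 construct, and 33 passed with none. TGFB2 and BAMBI rose, and TGFBR1, BMPR2 and SMAD2 fell, with each of WT, A347S and Δ486. ACVR1, SKIL and SPARC fell with A347S and Δ486, SMAD3, SMURF1 and ID1 with A347S, and BMP4 rose with Δ486. For these last 7 genes, passing with 1 construct and not with another is no test of a difference between the constructs, and the direct comparisons between constructs are given further on.

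**Figure D2:**
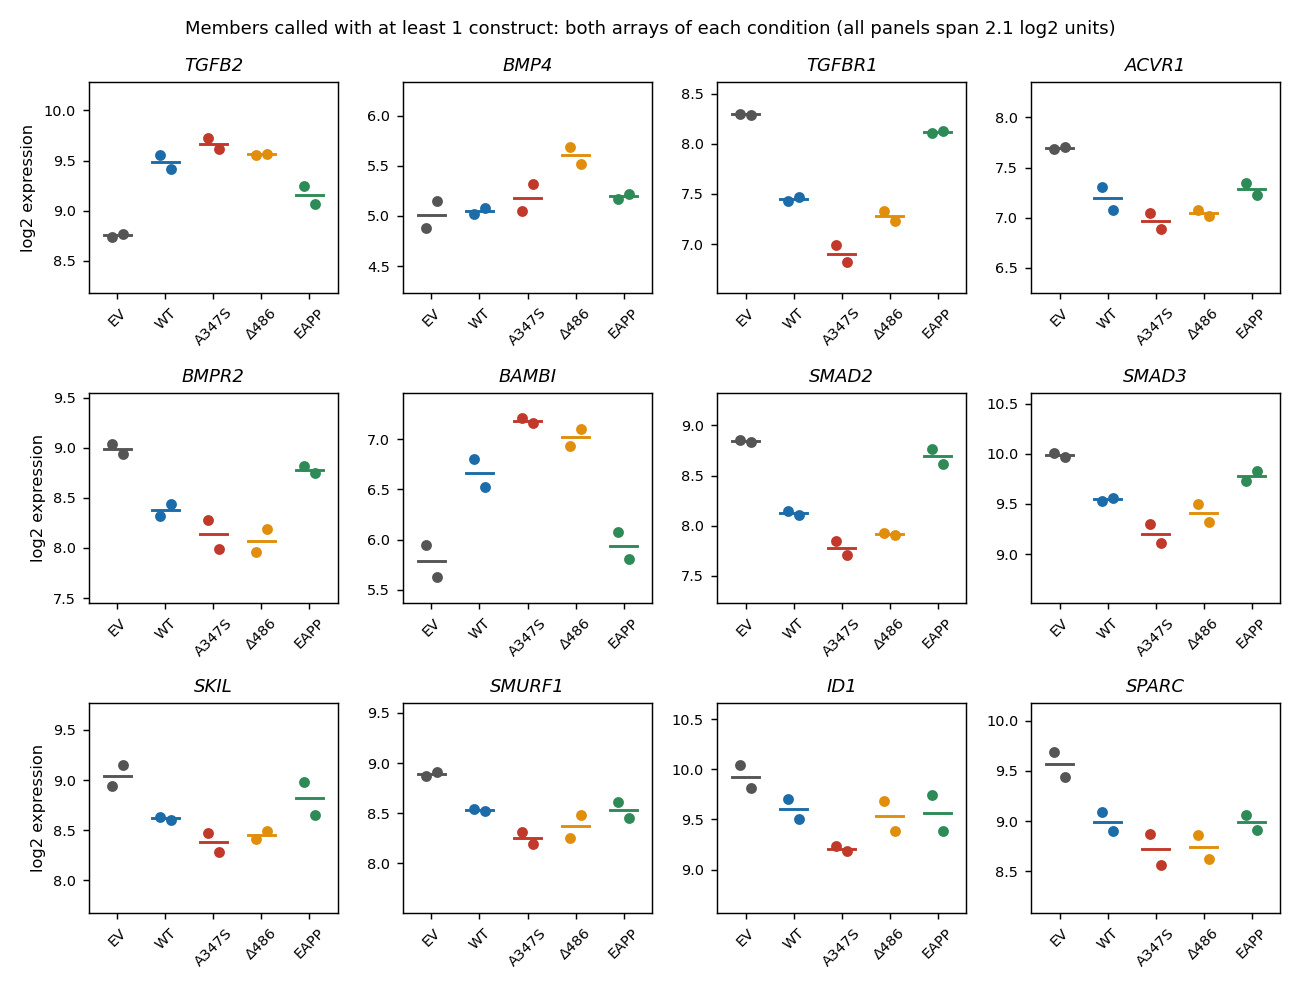
Expression on the log2 scale (vertical axis, each panel spanning 2.1 units) in both arrays of EV, WT, A347S, Δ486 and EAPP (horizontal axis) for the 12 pathway genes that passed the test with at least 1 construct. For TGFBR1 the 6 arrays of WT, A347S and Δ486 lie between 6.82 and 7.47 and those of EV and EAPP between 8.11 and 8.30, and for BAMBI the order is turned.

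The sequence just upstream of the transcription start is shown for the 5 genes that passed with WT, A347S and Δ486 alike and for SPARC, the gene with the largest mean change among those that passed with A347S and Δ486, because the overexpressed factor binds GC-rich promoter DNA. Each run is the 250 bases before the annotated start from RefSeq (GRCh38.p14), on the strand of the gene, 5′ to 3′, with capitals where the letters CCCCGC or CCCCAC, or their reverse complements GCGGGG and GTGGGG, occur. Matches that overlap form 1 longer run of capitals. BAMBI is at chr10:28677271-28677520 (+), TGFBR1 at chr9:99104863-99105112 (+), TGFB2 at chr1:218345086-218345335 (+), SMAD2 at chr18:47930873-47931122 (-), BMPR2 at chr2:202376077-202376326 (+) and SPARC at chr5:151686916-151687165 (-).
BAMBI: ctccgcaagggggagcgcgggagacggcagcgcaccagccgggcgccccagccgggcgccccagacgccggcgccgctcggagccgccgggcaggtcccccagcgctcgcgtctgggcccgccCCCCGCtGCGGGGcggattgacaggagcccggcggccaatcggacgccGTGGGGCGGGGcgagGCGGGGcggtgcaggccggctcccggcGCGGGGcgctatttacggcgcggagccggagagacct
TGFBR1: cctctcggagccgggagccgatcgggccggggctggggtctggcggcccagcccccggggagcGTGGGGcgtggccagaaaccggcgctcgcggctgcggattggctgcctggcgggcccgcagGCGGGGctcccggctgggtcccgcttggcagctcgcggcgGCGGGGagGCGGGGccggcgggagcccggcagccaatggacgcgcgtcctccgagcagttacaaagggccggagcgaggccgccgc
TGFB2: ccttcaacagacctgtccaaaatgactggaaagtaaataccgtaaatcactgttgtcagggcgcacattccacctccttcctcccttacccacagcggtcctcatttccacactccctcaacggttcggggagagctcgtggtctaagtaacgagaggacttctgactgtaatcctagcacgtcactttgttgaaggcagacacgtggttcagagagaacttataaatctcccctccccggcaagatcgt
SMAD2: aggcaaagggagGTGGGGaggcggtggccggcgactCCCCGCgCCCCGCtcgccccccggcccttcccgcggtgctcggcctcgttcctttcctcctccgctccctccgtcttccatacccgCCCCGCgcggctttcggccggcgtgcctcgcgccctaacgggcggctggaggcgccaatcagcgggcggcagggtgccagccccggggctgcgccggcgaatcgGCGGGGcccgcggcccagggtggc
BMPR2: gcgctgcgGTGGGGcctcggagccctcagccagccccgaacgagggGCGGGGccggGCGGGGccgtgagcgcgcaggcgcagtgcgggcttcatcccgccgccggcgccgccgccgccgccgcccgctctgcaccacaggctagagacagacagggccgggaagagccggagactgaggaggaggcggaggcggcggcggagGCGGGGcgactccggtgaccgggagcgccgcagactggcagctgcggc
SPARC: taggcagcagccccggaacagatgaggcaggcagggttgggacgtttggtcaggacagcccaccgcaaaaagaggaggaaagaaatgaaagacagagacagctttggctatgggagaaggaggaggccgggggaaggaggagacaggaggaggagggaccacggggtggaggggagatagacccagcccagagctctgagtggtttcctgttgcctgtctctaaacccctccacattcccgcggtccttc

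CCCCGC was matched 5 times upstream of BAMBI, 3 times upstream of TGFBR1, 4 times upstream of SMAD2 and 3 times upstream of BMPR2, counting both strands, and CCCCAC once in each of these. TGFB2, with 50.4% G and C, and SPARC, with 59.2%, held neither, whereas the other 4 runs had 78.4% to 81.2% G and C. A gene that rose (BAMBI) and genes that fell (TGFBR1, SMAD2, BMPR2) held the letters, and a gene that rose (TGFB2) and one that fell (SPARC) did not. Of the 41 pathway genes with a promoter in the table, 80.5% held CCCCGC or CCCCAC in these 250 bases, as did 75% of the 12 genes that passed and 54.1% of all 35116 promoters. CAGAC, the short element that SMAD proteins contact, was held on either strand by 36.6% of the 41 genes, by 66.7% of the 12 and by 38% of all promoters. It was matched 2 times upstream of BAMBI, TGFB2 and BMPR2, once upstream of TGFBR1, and not upstream of SMAD2 or SPARC. Such matches of 5 or 6 letters are a description of the sequence and no evidence of binding.

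Of the 8 ligands, 1 rose with WT, 1 with A347S and 2 with Δ486, and none fell. TGFB2, which encodes a TGF-beta isoform, read 8.74 and 8.77 in EV, 9.55 and 9.41 with WT, 9.72 and 9.61 with A347S, 9.55 and 9.57 with Δ486, and with EAPP 9.25 and 9.07. Every construct array, EAPP included, lay above both EV arrays. The rise was 0.73 with WT (SE 0.087, adjusted p = 0.000815), 0.91 with A347S (adjusted p = 8.90e-05) and 0.81 with Δ486 (adjusted p = 0.000329) on the log2 scale, and the difference with EAPP was 0.40 (adjusted p = 0.240).

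TGFB1, the most studied isoform, went the other way, at 7.81 and 7.82 in EV, 7.48 and 7.51 with WT, 7.25 and 7.38 with A347S, 7.41 and 7.47 with Δ486, and with EAPP 7.68 and 7.63. Its construct arrays all lay below EV, with differences of -0.32, -0.50 and -0.37 for WT, A347S and Δ486 (SE 0.073, adjusted p = 0.0154, 0.000755 and 0.00547), none of which reached 1.5-fold. INHBB, which encodes an activin subunit, was lower by a similar margin, at -0.33, -0.30 and -0.28, with adjusted p under 0.05 for the same constructs and short of 1.5-fold. The isoforms TGFB2 and TGFB1 thus lay on opposite sides of EV with WT, A347S and Δ486.

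BMP4, a BMP ligand, read 4.87 and 5.15 in EV, 5.02 and 5.08 with WT, 5.05 and 5.31 with A347S, 5.69 and 5.52 with Δ486, and with EAPP 5.17 and 5.22. The arrays of Δ486 lay above those of every other condition. Its rise with Δ486 was 0.59 (SE 0.12, adjusted p = 0.00565), and it was 0.45 without the first EV array (adjusted p = 0.0505) and 0.51 without the first Δ486 array, both short of the test. TGFB3, BMP2, BMP7 and INHBA had no adjusted p under 0.05 with any construct.

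Of the 6 extracellular regulators none passed the test. LTBP2, of the family that stores latent TGF-beta in the matrix, read 8.55 and 8.49 in EV and 8.03 and 7.97 with A347S, and was lower by 0.28, 0.52 and 0.37 with WT, A347S and Δ486, with adjusted p under 0.05 each time. NOG, which encodes the BMP antagonist noggin, read 7.79 and 7.51 in EV and 7.12 and 7.08 with A347S, a difference of -0.55 (SE 0.11, adjusted p = 0.00462). Without the second EV array it was -0.69 and passed the fold threshold. With A347S, LTBP3, a relative of LTBP2, was lower by 0.30 and FST, which encodes the activin antagonist follistatin, was higher by 0.27, both with adjusted p under 0.05 and short of 1.5-fold. LTBP1 and THBS1, an activator of latent TGF-beta, had none with any construct.

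The receptors held the largest changes of the list in each direction. Of the 10, 3 passed with WT, 4 with A347S and 4 with Δ486. TGFBR1, the type I receptor kinase of TGF-beta, read 8.30 and 8.29 in EV, 7.43 and 7.47 with WT, 6.99 and 6.82 with A347S, 7.33 and 7.23 with Δ486, and with EAPP 8.11 and 8.12. The arrays of each condition lay apart from those of every other, and those of EAPP were nearest to EV. TGFBR1 fell by 0.84 with WT (SE 0.079, adjusted p = 0.000271), by 1.39 with A347S (adjusted p = 1.24e-05) and by 1.01 with Δ486 (adjusted p = 9.29e-05), which are folds of 1.80, 2.62 and 2.02. With EAPP the difference was -0.18 (adjusted p = 0.565).

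BAMBI encodes a membrane protein like a type I receptor without a kinase, which blocks TGF-beta and BMP receptors. It read 5.94 and 5.62 in EV, 6.81 and 6.53 with WT, 7.21 and 7.16 with A347S, 6.94 and 7.10 with Δ486, and with EAPP 6.07 and 5.80. The arrays of WT, A347S and Δ486 all lay above those of EV, which overlapped those of EAPP. BAMBI rose by 0.89 with WT (SE 0.14, adjusted p = 0.00259), by 1.40 with A347S (adjusted p = 9.97e-05) and by 1.24 with Δ486 (adjusted p = 0.000371), and the difference with EAPP was 0.15 (adjusted p = 0.813). TGFBR1 and BAMBI, a receptor and a decoy of receptors, were thus the genes with the largest fall and the largest rise of the list with WT, A347S and Δ486.

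BMPR2, the type II receptor of BMPs, read 9.04 and 8.94 in EV, 8.32 and 8.44 with WT, 8.28 and 7.99 with A347S, 7.96 and 8.18 with Δ486, and with EAPP 8.82 and 8.75. All construct arrays lay below EV, those of EAPP by the least. The fall was 0.61 with WT (SE 0.11, adjusted p = 0.00579), 0.85 with A347S (adjusted p = 0.000425) and 0.92 with Δ486 (adjusted p = 0.000573). With WT it was close to the fold threshold, and came to -0.55 without the first EV array, -0.55 without the first WT array and -0.57 after either rescaling of the arrays, where it no longer passed.

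ACVR1, a type I receptor of BMPs and activins also named ALK2, read 7.69 and 7.71 in EV, 7.31 and 7.08 with WT, 7.05 and 6.89 with A347S, 7.08 and 7.01 with Δ486, and with EAPP 7.35 and 7.23. Its EAPP arrays lay below EV and overlapped those of WT. It fell by 0.73 with A347S (SE 0.096, adjusted p = 0.000419) and by 0.65 with Δ486 (adjusted p = 0.00134), and was lower by 0.50 with WT (adjusted p = 0.00654) and by 0.41 with EAPP (adjusted p = 0.279). Without the first WT array the WT value was -0.62 and passed.

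Among the other receptors, TGFBR2, the type II receptor of TGF-beta, read 9.40 and 9.50 in EV and 9.20 and 9.14 with A347S, a difference of -0.28. ACVR1B, a type I receptor of activins, was lower with A347S by 0.38. ACVR2A, a type II receptor of activins, was higher with A347S by 0.42. These 3 had an adjusted p under 0.05 with A347S and were short of 1.5-fold. TGFBR3, BMPR1B and ACVR2B had none with any construct, and BMPR1B, at a mean of 3.77, was near the low end of the scale. Whether TGFBR1 and TGFBR2, partners in the TGF-beta receptor, differed in their change was not tested.

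Of the 8 SMAD genes, SMAD2 fell with WT, A347S and Δ486 and SMAD3 with A347S. SMAD2 read 8.85 and 8.83 in EV, 8.15 and 8.11 with WT, 7.85 and 7.71 with A347S, 7.93 and 7.91 with Δ486, and with EAPP 8.77 and 8.62. The arrays of WT, A347S and Δ486 all lay below those of EV and EAPP. The fall was 0.72 with WT (SE 0.081, adjusted p = 0.000585), 1.07 with A347S (adjusted p = 3.50e-05) and 0.92 with Δ486 (adjusted p = 0.000140), and the difference with EAPP was -0.15 (adjusted p = 0.660). A dimmer cluster of SMAD2, with a mean of 6.55, gave -0.64, -0.83 and -1.01 for WT, A347S and Δ486 (adjusted p = 0.0137, 0.00190 and 0.00112) and -0.23 for EAPP. Both clusters of the gene thus moved alike.

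SMAD3, the other SMAD that TGF-beta receptors phosphorylate, read 10.01 and 9.97 in EV, 9.53 and 9.56 with WT, 9.30 and 9.11 with A347S, 9.50 and 9.32 with Δ486, and with EAPP 9.73 and 9.83. Every construct array lay below EV. It fell by 0.79 with A347S (SE 0.093, adjusted p = 0.000242), and was lower by 0.44 with WT (adjusted p = 0.00998), by 0.58 with Δ486 (adjusted p = 0.00200) and by 0.21 with EAPP (adjusted p = 0.567). The Δ486 value lay at the edge of the fold threshold, and passed at -0.60 without the second EV array and at -0.67 without the first Δ486 array.

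The inhibitory SMAD6 read 7.42 and 7.48 in EV, 6.96 and 6.88 with WT, 6.92 and 7.00 with A347S, 7.00 and 6.95 with Δ486, and with EAPP 7.20 and 7.26. It was lower by 0.53, 0.49 and 0.47 with WT, A347S and Δ486, with adjusted p under 0.05 each time and short of 1.5-fold. SMAD5, of the BMP branch, was lower by 0.31, 0.43 and 0.36, and SMAD1, of the same branch, was higher by 0.25 with Δ486, again with adjusted p under 0.05 and short of 1.5-fold. SMAD4, the shared partner, was lower by 0.25 with A347S.

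SMAD7, the inhibitory SMAD of TGF-beta receptors, read 6.33 and 5.96 in EV, 6.28 and 6.12 with WT, 6.05 and 5.99 with A347S, 6.21 and 5.93 with Δ486, and with EAPP 6.04 and 5.82. The arrays of every construct overlapped those of EV. Its difference with WT was 0.06 (95% interval -0.26 to 0.37, adjusted p = 0.854). A change within that interval, in either direction, remained compatible with these arrays. The difference was -0.13 without the second EV array. SMAD9 also had no adjusted p under 0.05 with any construct.

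All 7 genes grouped here as intracellular inhibitors had a lower mean than EV with every construct. Of all clusters, 54.5%, 48.5%, 45.5% and 49.6% were lower with WT, A347S, Δ486 and EAPP. With EAPP 6 of 7 were lower after quantile scaling, without the second EV array and without the first EAPP array. Some of the differences were near 0, as for SKI with EAPP at -0.0086. The group leaves out SMAD6 and SMAD7, which also limit the response, and SMAD7 was 0.06 above EV with WT. SKIL, which encodes the SMAD corepressor SnoN, read 8.94 and 9.15 in EV, 8.63 and 8.60 with WT, 8.48 and 8.29 with A347S, 8.41 and 8.49 with Δ486, and with EAPP 8.98 and 8.66. The arrays of WT, A347S and Δ486 lay below EV and those of EAPP overlapped it. It fell by 0.66 with A347S (SE 0.12, adjusted p = 0.00240) and by 0.59 with Δ486 (adjusted p = 0.00629), and was lower by 0.43 with WT (adjusted p = 0.0364). Without the second EV array the A347S value was -0.55 and the Δ486 value -0.49, and neither passed. The A347S value was also short of 1.5-fold without the second A347S array, at -0.57, and the Δ486 value without the first Δ486 array, at -0.56.

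SMURF1, a ubiquitin ligase for SMADs and receptors, read 8.87 and 8.91 in EV, 8.54 and 8.52 with WT, 8.31 and 8.19 with A347S, 8.26 and 8.48 with Δ486, and with EAPP 8.61 and 8.45. Every construct array lay below EV. It fell by 0.64 with A347S (SE 0.095, adjusted p = 0.000806), and by values short of 1.5-fold it was lower with WT at -0.36, with Δ486 at -0.52 and with EAPP at -0.36 (adjusted p = 0.322). The A347S value came to -0.58 without the second A347S array, where it missed the fold threshold, and the Δ486 value passed at -0.64 without the second Δ486 array. Its relative SMURF2 was lower with A347S by 0.54 and with Δ486 by 0.41, and PMEPA1, a TGF-beta-induced gene whose product sequesters receptor SMADs, with A347S by 0.33, all with adjusted p under 0.05. SKI, TGIF1 and TGIF2 had none.

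Of the 6 targets, SPARC fell with A347S and Δ486 and ID1 with A347S. SPARC, a secreted matrix protein, read 9.69 and 9.44 in EV, 9.09 and 8.90 with WT, 8.87 and 8.57 with A347S, 8.86 and 8.62 with Δ486, and with EAPP 9.06 and 8.91. All 8 construct arrays, EAPP included, lay below both EV arrays. It fell by 0.85 with A347S (SE 0.13, adjusted p = 0.00117) and by 0.83 with Δ486 (adjusted p = 0.00220). With WT it was lower by 0.57 (adjusted p = 0.0168) and just under 1.5-fold, and with EAPP by 0.58 (adjusted p = 0.276), the largest difference of the list with that mutant. The WT value passed at -0.70 without the second EV array and at -0.67 without the first WT array.

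ID1, a target of BMP signalling that blocks differentiation factors, read 10.04 and 9.81 in EV, 9.70 and 9.51 with WT, 9.24 and 9.18 with A347S, 9.68 and 9.39 with Δ486, and with EAPP 9.75 and 9.38. Its construct arrays all lay below EV, those of A347S the furthest. It fell by 0.72 with A347S (SE 0.14, adjusted p = 0.00424), and the values with WT, Δ486 and EAPP were -0.32, -0.39 and -0.36, with adjusted p of 0.168, 0.0817 and 0.516. TGFBI, a TGF-beta-induced matrix protein, was lower by 0.26 with A347S and short of 1.5-fold. ID2, ID3 and ID4, relatives of ID1, had no adjusted p under 0.05 against EV with any construct.

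**Figure D3:**
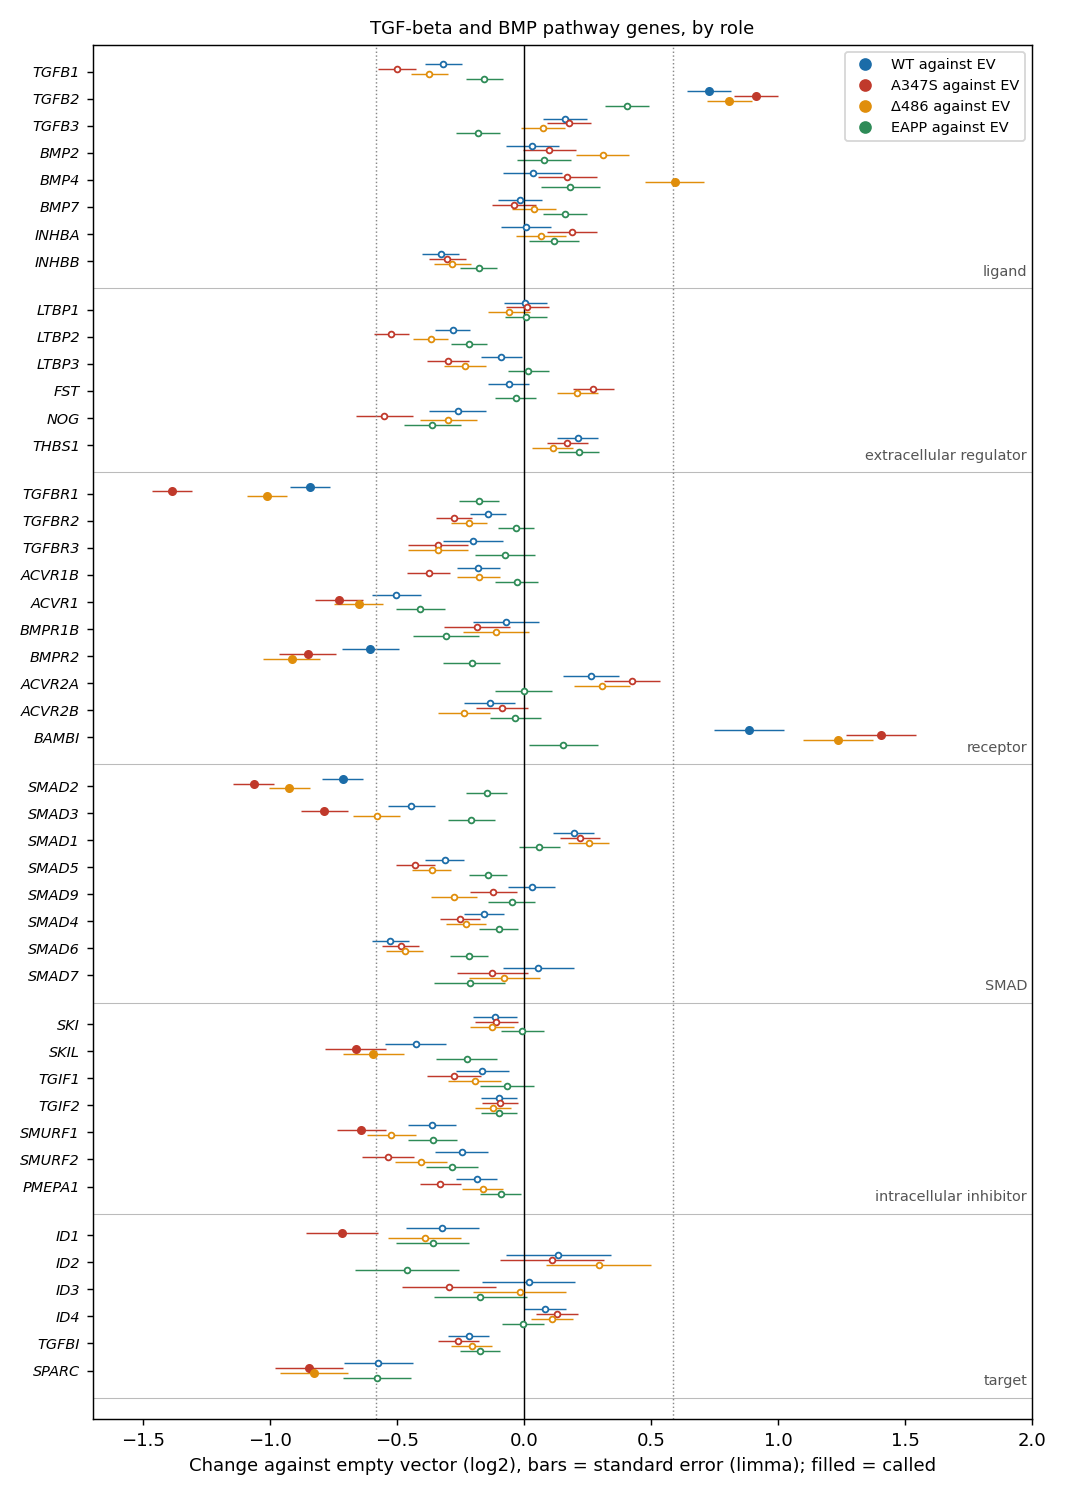
Change against EV on the log2 scale (horizontal axis) for the 45 pathway genes (vertical axis, grouped by role), 1 point for each construct with its standard error from limma, filled where the test was passed, and dotted lines at 1.5-fold. BAMBI at 1.40 and TGFBR1 at -1.39 with A347S are the extremes, and EAPP has no filled point.

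The constructs were also compared with each other, without EV. Between A347S and WT, Δ486 and WT, and A347S and Δ486, 0 of the 45 genes passed the test, as did 0% of all clusters. An unadjusted limma p under 0.05 was reached by 14, 7 and 5 of the 45 genes in these comparisons, beside 14.4%, 10.5% and 7.43% of all clusters, and 0 passed under any other test or setting that was run. TGFBR1 was lower with A347S than with WT by 0.54 (95% interval -0.72 to -0.37, adjusted p = 0.109), BAMBI was higher by 0.52 (0.21 to 0.83, adjusted p = 0.191) and SMAD2 lower by 0.35 (-0.53 to -0.17, adjusted p = 0.185). For these 3 genes the interval excluded 0 and the adjusted p missed the threshold, so the steeper values of A347S against EV were not shown to differ from those of WT.

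Between EAPP and WT 2 of the 45 passed, beside 2.51% of all clusters. Between EAPP and A347S 4 passed, beside 6.01%, and between EAPP and Δ486 5, beside 3.26%. TGFBR1 was higher with EAPP than with WT by 0.66 (95% interval 0.49 to 0.84, adjusted p = 0.00143), than with A347S by 1.21 (1.03 to 1.39, adjusted p = 4.67e-05) and than with Δ486 by 0.83 (0.66 to 1.01, adjusted p = 0.000406). BAMBI was lower by 0.73 (SE 0.14, adjusted p = 0.0100), by 1.25 (adjusted p = 0.000301) and by 1.08 (adjusted p = 0.00119) in the same order. The TGF-beta receptor and its decoy therefore passed in all 3 direct comparisons, although BAMBI against WT came to -0.59 without the first WT array (adjusted p = 0.0928) and -0.60 without the second EAPP array (adjusted p = 0.0764).

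SMAD2 was higher with EAPP than with WT by 0.57 (SE 0.081, adjusted p = 0.00283), just short of 1.5-fold (0.59 without the first WT array and 0.64 without the second EAPP array, which passed), and passed against A347S at 0.92 (adjusted p = 0.000113) and against Δ486 at 0.78 (adjusted p = 0.000565). BMPR2 passed against A347S at 0.65 (SE 0.11, adjusted p = 0.00281) and Δ486 at 0.71 (adjusted p = 0.00332). The BMPR2 difference from A347S was 0.50 without the second A347S array and 0.58 after cyclic loess scaling, both short of 1.5-fold. Against WT it was 0.40 (95% interval 0.15 to 0.65, adjusted p = 0.0512).

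ID2 also passed between EAPP and Δ486, at -0.75 (SE 0.21, adjusted p = 0.0364). It read 7.65 and 7.18 in EV, 7.71 and 7.70 with Δ486, and with EAPP 7.30 and 6.61, so that the EAPP arrays lay 0.69 apart. The call was lost in 7 of the 10 fits that left out 1 array, and only without either EV array or the first EAPP array did it hold. Over all 10 of these fits the difference ran from -1.10 to -0.41. Without the second EAPP array the difference was -0.41 (adjusted p = 0.174), and without moderation the adjusted p was 0.159. SPARC did not separate EAPP from WT, with a difference of -0.01 and a 95% interval of -0.31 to 0.30. TGFB2 was lower with EAPP than with WT by 0.32 (adjusted p = 0.0442), A347S by 0.51 and Δ486 by 0.40, all short of 1.5-fold.

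**Figure D4:**
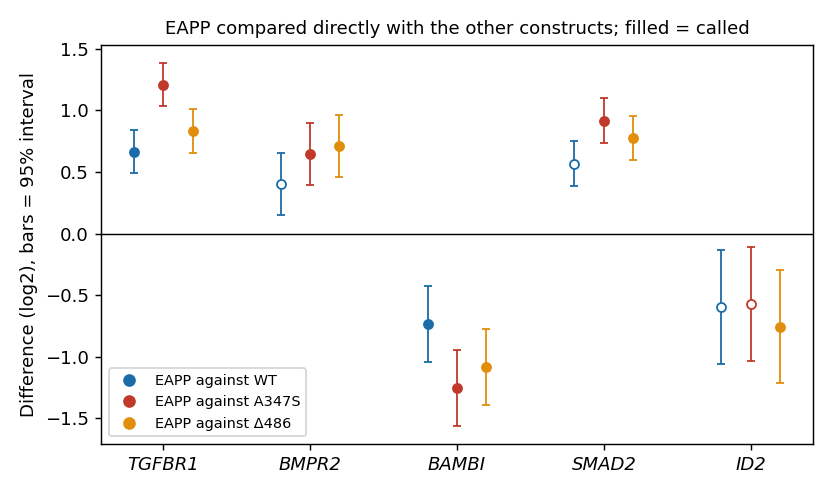
Difference of EAPP from WT, A347S and Δ486 on the log2 scale (vertical axis) for the pathway genes that passed in at least 1 of these comparisons (horizontal axis), with the 95% interval from limma and filled points where the test was passed. TGFBR1, BMPR2 and SMAD2 lie above 0 and BAMBI and ID2 below it against each of the 3 constructs.

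A wider list of 86 pathway genes outside the 46, of which 81 were measured, was described by the same test. Of the 81, 3 passed with WT (3.7%), 6 with A347S (7.41%), 4 with Δ486 (4.94%) and 0 with EAPP, close to the shares of all clusters given above. TWSG1, which encodes a secreted modulator of BMPs, read 9.79 and 9.75 in EV, 9.24 and 9.10 with WT, 8.89 and 8.56 with A347S, 8.94 and 8.91 with Δ486, and with EAPP 9.57 and 9.72. It fell by 0.60, 1.04 and 0.84 with WT, A347S and Δ486 (SE 0.11, adjusted p = 0.00567, 0.000140 and 0.000764), and its EAPP difference was -0.13 (adjusted p = 0.808). With WT it missed 1.5-fold without the first EV array or the second WT array, where it was -0.58 and -0.53.

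KLF10, the TGF-beta-induced relative of KLF11 also named TIEG1, read 8.48 and 8.52 in EV, 7.87 and 7.87 with WT, 7.63 and 7.63 with A347S, 7.70 and 7.65 with Δ486, and with EAPP 8.18 and 7.96. It fell by 0.63, 0.87 and 0.83 with WT, A347S and Δ486 (SE 0.083, adjusted p = 0.00122, 8.88e-05 and 0.000239), and its EAPP arrays lay between those of EV and those of WT (-0.43, adjusted p = 0.213). After quantile scaling its WT value was -0.57 and short of 1.5-fold. The study's discussion reports KLF10 as upregulated with A347S and Δ486, the opposite direction to these values. The reason for this difference was not tested. With A347S, TAB2, an adaptor of the TAK1 kinase, fell by 0.64 and ANGPTL4, a TGF-beta-induced secreted protein, by 0.66, while DAB2, an adaptor of receptor uptake, rose by 0.63. TAB2 also fell with Δ486, by 0.60. The calls of TAB2 and DAB2 were lost after either rescaling. Without the second A347S array, TAB2 was at -0.56 and DAB2 at 0.57 with A347S, both short of 1.5-fold, and without the second EV array DAB2 was at 0.45 with A347S and TAB2 at -0.57 with Δ486. Without the first Δ486 array TAB2 was at -0.54 with Δ486. CCN2, a TGF-beta-induced matrix protein also named CTGF, did not pass, at 0.07, -0.29, -0.0029 and -0.19 with WT, A347S, Δ486 and EAPP (SE 0.12). The remaining gene of the wider list that passed was KLF11 itself, whose cluster may also read the introduced sequence.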

How the data were processed

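Expression was measured on 10 Affymetrix Human Gene 1.0 ST arrays, 2 for each of 5 conditions. The authors corrected background and normalized intensities with RMA (Robust Multiarray Analysis). Partek 6.6 is named in the submitters' processing notes. The values used here are the log2 intensities deposited in 1 table of 28869 transcript clusters. No source used here names the build behind the array annotation. Of these clusters 19229 carry 1 gene symbol, 1732 several and 7908 none, and the last were left out of the main fit. Names came from the platform annotation, and all 45 genes matched RefSeq by gene number. Arrays give no read depth, so their number limits the precision.

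With limma 3.58.1, a mean for each condition was estimated from all 10 arrays (lmFit and eBayes, R 4.3.3), which left 5 residual degrees of freedom plus 4.54 from moderation. P-values are two-sided, with Benjamini-Hochberg adjustment over 20961 clusters. The study's text states a 1.5-fold threshold in one place and 1.5 on the log2 scale in another, and the former was used. The genes described one by one are those that passed the test in any comparison, followed by those with an adjusted p under 0.05 alone. SMAD7 was described for its known relation to KLF11, a choice made after its values were seen. Promoters are those of the 6 genes that passed with the most constructs, ordered by mean absolute change. The members, lists and tests were chosen with earlier results of these data known. The fit was also run on simulated arrays with independent noise and planted changes. Such a simulation cannot show whether the spread of the real arrays is technical only, nor detect an error in the shared EV arrays. The alternatives were other thresholds, tests, scalings and filters, a replicate block and leaving out each array. The arrays were not paired in the main fit, and deviations of same-numbered arrays correlated between -0.35 and 0.15. With 2 arrays per condition the sign depends on their numbering, so this does not settle whether arrays shared a batch. No set test was run. Plots were made in Python 3.11.15 (matplotlib 3.10.9).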

Additional observations from a re-analysis of the deposited data

How the results depend on the processing

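There were 25 calls of a pathway gene with a construct against EV. All 25 kept their side of the threshold with a variance trend and robust moderation, without moderation, with the arrays of the compared conditions only, with all clusters, with another rule for genes of several clusters, and with the replicate number as a block, where the counts stayed at 5, 11, 9 and 0 for WT, A347S, Δ486 and EAPP. Cyclic loess scaling lost 4 (BMP4 and SKIL with Δ486, BMPR2 with WT, SMURF1 with A347S) and quantile scaling the same 4 and SKIL with A347S, and 0 of the 25 changed sign in any alternative. An unmoderated t-test on the 4 arrays compared, which lacks the Bayes step of the study's methods, lost at an unadjusted p BMP4 with Δ486 and BAMBI with WT. Restriction to clusters with a mean of at least 6, which leaves out BMP4, kept 24 of 24. The cause of these losses was not tested.

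Without the fold threshold the counts were 15, 26 and 18 for WT, A347S and Δ486, beside 17.3%, 28.4% and 22.4% of all clusters. For EAPP against WT, A347S and Δ486 they were 6, 18 and 9. No share of all clusters is given for these direct comparisons, so their counts cannot be read as particular to the pathway genes. At 1.5 on the log2 scale, the other threshold the study names, all 6 counts were 0, and with this t-test after Benjamini-Hochberg adjustment, which shares no spread across genes, they were 0 as well. EAPP against WT gave 1 without moderation and 1 with this t-test at an unadjusted p. Leaving out each array in turn gave 4 to 6 calls with WT, 9 to 12 with A347S, 8 to 10 with Δ486 and 0 with EAPP, and 2 to 3, 3 to 7 and 4 to 5 for EAPP against WT, A347S and Δ486. The 7 came without the first EAPP array. A condition left with 1 array is assumed to vary like the others. With WT, A347S and Δ486 against EV, the count of calls over all clusters also moved between these fits. The ranges of the pathway genes therefore do not show a stability particular to them. For the direct comparisons no such count over all clusters is given. Of the differences recomputed under every alternative, which are not all those near 0 in the list, the uncalled ones that changed sign were BMP4 with WT (-0.11 without the first EV array, and up to 0.17), BAMBI with EAPP (-0.0052 without the second EV array, and up to 0.31), SMAD7 with WT (-0.13 without the second EV array and -0.022 without the first WT array, and up to 0.24), SPARC between EAPP and WT (0.086 without the first WT array and 0.065 without the second EAPP array, and down to -0.0997), DAB2 with EAPP (0.13 without the first EV array, 0.0018 without the second EAPP array, and down to -0.24), CCN2 with WT (-0.063 without the first EV array and -0.0245 without the first WT array, and up to 0.196), and CCN2 with Δ486 (0.048 after either rescaling, 0.127 without the second EV array and 0.03 without the second Δ486 array, and down to -0.133).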
